A study of Mus musculus with 31 samples.

Results

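The genes described here are 8 genes of smooth muscle and of the mural cells that wrap blood vessels: *Acta2*, *Tagln*, *Cnn1*, *Myl9*, *Des*, *Pdgfra*, *Pdgfrb*, and *Pdgfb*. They were taken by symbol from a table of 18477 genes, and all 8 were present. RNA had been sequenced from single, somite-matched yolk sacs of mixed-strain mouse embryos at embryonic day (E) 8.5, with 31 libraries in an allelic series of *Etv2*, a transcription factor of the ETS family needed for blood and endothelial development. The groups were *Etv2* +/+ (6 libraries), +/enhΔ (4), +/Δ (6), enhΔ/enhΔ (5), enhΔ/Δ (5), and Δ/Δ (5). The Δ allele is a deletion of the part of the gene for DNA binding (exons 4 and 5). It was produced by crossing males with a floxed allele to females with a Mef2c-AHF-Cre transgene. Cre from the female germline deleted the exons, so the deletion is present throughout the embryo. The enhΔ allele lacks the upstream enhancer of *Etv2*, removed by CRISPR-Cas9 in zygotes. Whole yolk sacs were used, so blood, endothelium, mesoderm, mesothelium, and visceral endoderm share each library.

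Mural cells are the smooth muscle cells and pericytes on the outside of vessels. In the classical model, endothelial cells secrete PDGF-B, and mural cell progenitors that carry its receptor PDGFRβ are drawn to the endothelial tube and multiply there. Contractile genes such as *Acta2* are switched on by serum response factor (SRF) and its cofactors of the myocardin family through a DNA element called the CArG box. At this stage the yolk sac holds a capillary plexus that is only starting to be remodeled, and many of these genes are also used by mesoderm, fibroblasts, and the early heart.

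Between 2671612 and 22396340 reads per library were counted in genes (median 13894962), and 1 read corresponded to 0.0440 to 0.378 CPM. *Etv2* itself was low in every yolk sac, at 0 to 0.491 CPM in the libraries without a Δ allele and 0.220 to 3.59 CPM in those with 1 or 2 copies. Since reads were not resolved by exon, this does not check the genotypes. Reads of the ferritin pseudogene *Ftl2-ps* exceeded 10 CPM in 8 libraries (+/+ replicates 2 to 6 and +/enhΔ replicates 2 to 4) and stayed at or below 0.515 CPM in the other 23. All Δ/Δ and all +/Δ libraries were therefore on the low side together, whereas +/+ had only replicate 1 there. Of 11 libraries labelled male, 4 had no Y-linked reads above 0.258 CPM (+/Δ replicates 2 and 3, Δ/Δ replicates 1 and 2). Of the libraries labelled female, Δ/Δ replicate 5 had 7.05 CPM of Y-linked reads beside *Xist* at 639 CPM, and the others had at most 0.867 CPM of Y-linked reads. The 3 shallowest libraries were Δ/Δ replicate 1 and +/Δ replicates 2 and 3. Nothing in the labels assigns libraries to the processing batches that the authors modeled.

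Per kilobase of exon, *Acta2* was the most abundant of the 8 genes and *Cnn1* the least. Mean levels over the 31 libraries were 74.7 CPM per kilobase for *Acta2*, 14.1 for *Pdgfra*, 7.79 for *Tagln*, 4.02 for *Myl9*, and 3.85 for *Pdgfrb*. The other 3 were below 1 CPM per kilobase, with 0.970 for *Pdgfb*, 0.637 for *Des*, and 0.202 for *Cnn1*. *Acta2* stood above 91.4% of all genes in mean log2 value. *Cnn1* was covered by 175 reads in all and was at 0 in 5 libraries, so that only large differences in it could have been seen. *Acta2* rested on 54628 reads.

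Of the 8 members, 5 had an entry in the RefSeq promoter table (build GRCm38.p6): *Acta2*, *Cnn1*, *Myl9*, *Des*, and *Pdgfra*. *Tagln*, *Pdgfrb*, and *Pdgfb* were not matched. The 250 bases before the annotated start are shown for 2 genes that differed between genotypes (*Acta2* and *Des*) and for 1 contractile gene that was not found to differ (*Myl9*), because these genes are classical targets of SRF. Capitals mark each match to a CArG box with at most 1 base other than A or T in its 6-base centre, searched on both strands.
*Acta2*, chr19:34255374-34255623, minus strand: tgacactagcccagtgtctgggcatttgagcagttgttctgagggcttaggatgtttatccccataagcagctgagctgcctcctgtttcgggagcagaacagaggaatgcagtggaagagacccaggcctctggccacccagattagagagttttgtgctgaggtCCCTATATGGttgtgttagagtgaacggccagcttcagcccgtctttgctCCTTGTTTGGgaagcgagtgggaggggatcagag
*Myl9*, chr2:156775214-156775463, plus strand: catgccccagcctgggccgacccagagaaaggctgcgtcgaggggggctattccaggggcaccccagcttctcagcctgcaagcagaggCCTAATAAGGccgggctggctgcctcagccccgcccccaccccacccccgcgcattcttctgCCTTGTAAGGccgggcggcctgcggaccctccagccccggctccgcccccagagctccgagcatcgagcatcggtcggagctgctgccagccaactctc
*Des*, chr1:75360042-75360291, plus strand: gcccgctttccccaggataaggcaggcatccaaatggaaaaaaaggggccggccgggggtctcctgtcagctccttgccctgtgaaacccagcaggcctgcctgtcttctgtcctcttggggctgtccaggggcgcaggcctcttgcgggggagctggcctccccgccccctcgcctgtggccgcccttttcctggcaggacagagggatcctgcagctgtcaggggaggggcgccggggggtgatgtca
*Acta2* and *Myl9* each had 2 matches, and *Des*, *Cnn1*, and *Pdgfra* had none in this window. Among 32851 promoter windows of the same length, 8.59% held at least 1 match and 0.67% held 2 or more. The match in *Myl9* at bases -161 to -152 had only A and T in its centre, as did matches in 1.47% of windows. A match is a stretch of letters and was not tested as a binding site. Matches were thus present both in a gene that differed by genotype and in one that was not found to differ.

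The first question was whether smooth muscle and mural cell genes change when *Etv2*, and with it the endothelium, is lost. Of the 8 genes, 3 were higher in Δ/Δ yolk sacs than in +/+, and none was lower. *Acta2* rose 1.52-fold, *Des* 2.60-fold, and *Pdgfrb* 1.77-fold on the log2(CPM + 1) scale. For the low gene *Des* the size depends on the scale, with a log2 difference of 1.38 here, 1.93 with a pseudocount of 0.25, and 2.05 in limma-voom on the recovered reads. That is 3 of 8 members called higher, against 5.6% of all 18477 genes called higher and 13.3% called in either direction (limma on log2 values, adjusted p under 0.05). The median difference over the 8 members was 0.13, and over all genes -0.01. The same 3 genes were higher in Δ/Δ than in +/Δ, where 5.86% of all genes were called higher and 13.4% in either direction. These comparisons share the Δ/Δ libraries. In whole yolk sacs, more cells of a type and more RNA per cell cannot be told apart.

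**Figure D1:**
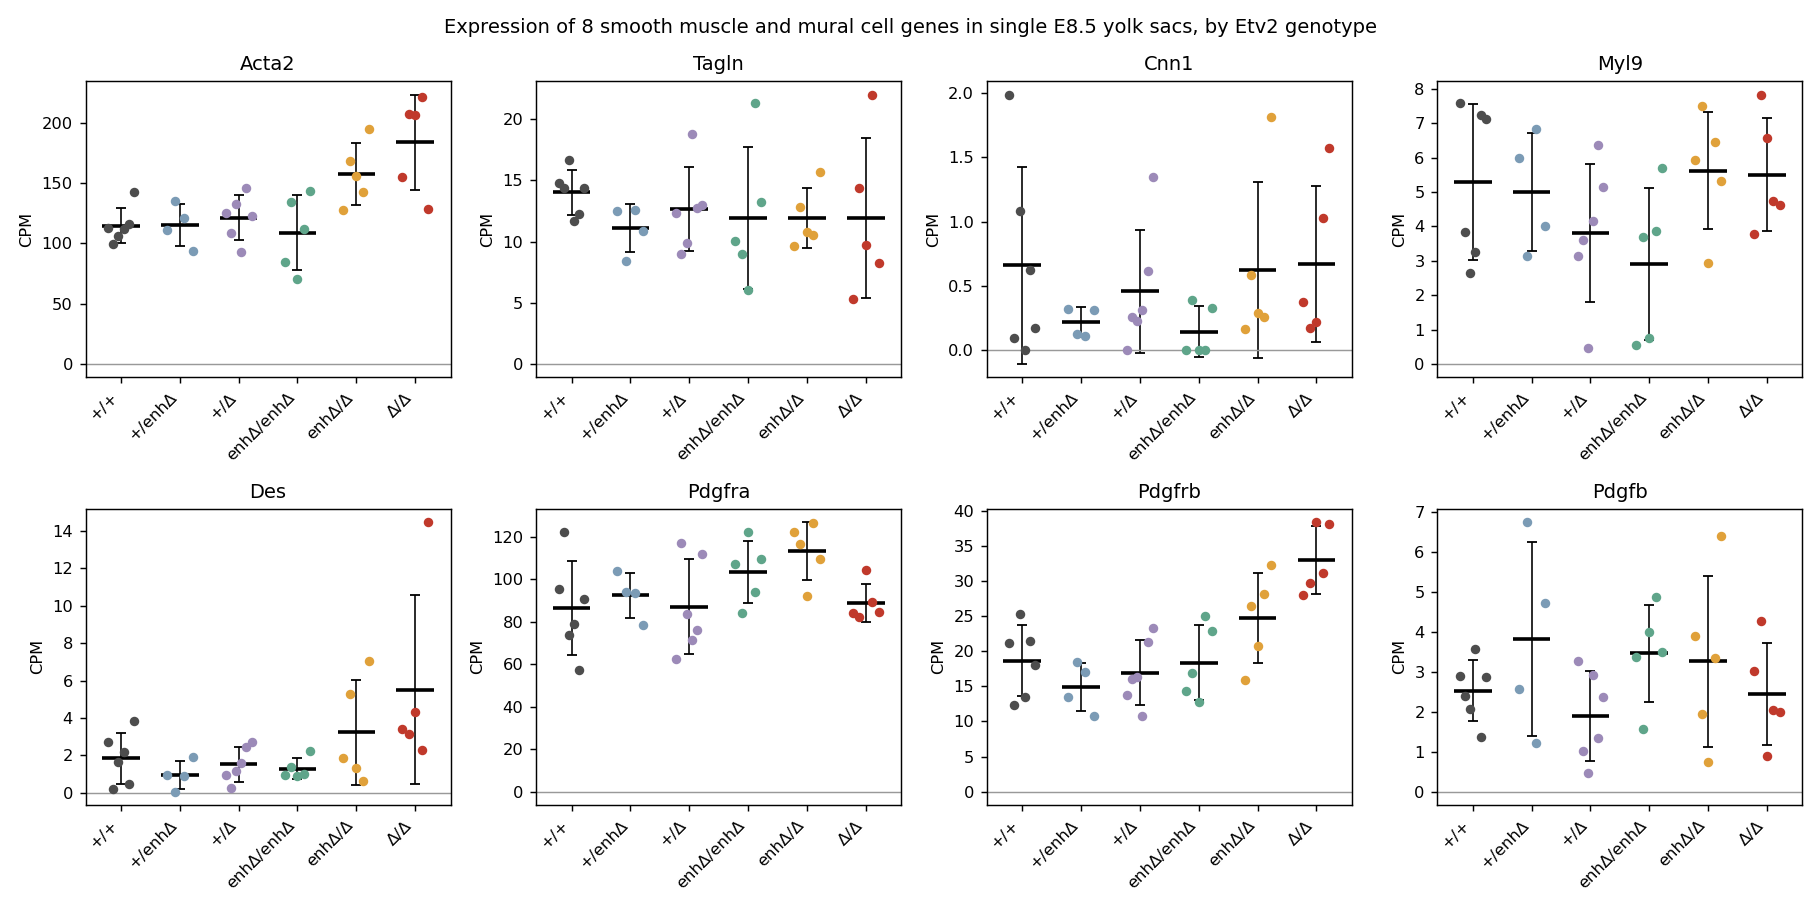
Level of each gene (CPM, linear axis) in every library, with genotypes on the horizontal axis, 1 point per yolk sac, a line at the mean, and a bar of 1 SD to either side. *Acta2* and *Pdgfrb* were highest in Δ/Δ, at means of 184 and 33.0 CPM, while the groups overlapped widely for *Tagln*, *Cnn1*, *Myl9*, and *Pdgfb*.

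*Acta2* (chr19:34315580-34329826 in mm9, minus strand) encodes smooth muscle α-actin, the thin filament protein of contractile mural cells. Its level was 155, 207, 206, 221, and 128 CPM in the 5 Δ/Δ libraries. In +/+ it ranged from 99.7 to 143 CPM (median 112), and in +/Δ from 93.1 to 145 CPM (median 124). Of the Δ/Δ libraries, 4 of 5 exceeded every +/+ library, and replicate 5 lay within the +/+ range. The difference from +/+ was 0.60 ± 0.17 (SE; adjusted p = 0.0125, limma), and that from +/Δ was 0.55 ± 0.16 (adjusted p = 0.0195). enhΔ/Δ yolk sacs stood between, at 127, 169, 156, 142, and 194 CPM. All 5 exceeded the +/+ median and 3 exceeded every +/+ library, but the difference of 0.42 ± 0.16 did not pass the test over all genes (unadjusted p = 0.0132, adjusted p = 0.251, limma). In enhΔ/enhΔ the values spread from 70.3 to 143 CPM, and in +/enhΔ from 93.3 to 135 CPM, both across the +/+ range. Reads shared with the other actin genes could have been divided among them in counting.

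*Des* (chr1:75356904-75365154, plus strand) encodes desmin, the intermediate filament of muscle cells and many pericytes. It was a low gene, with 972 reads over the series. The Δ/Δ libraries had 3.40, 3.12, 4.30, 2.26, and 14.5 CPM. The +/+ libraries ranged from 0.192 to 3.83 CPM (median 1.92), and the +/Δ libraries from 0.258 to 2.69 CPM (median 1.38). Every Δ/Δ library exceeded the median of +/+, but only 2 of 5 exceeded all +/+ libraries, and replicate 5 was far above the rest. The difference from +/+ was 1.38 ± 0.40 (adjusted p = 0.0195, limma) and from +/Δ 1.37 ± 0.39 (adjusted p = 0.0159). The call against +/+ rested on labelled sex as a term: with no sex term the difference was 1.10 (adjusted p = 0.0769), and with sex taken from Y-linked reads 1.12 (adjusted p = 0.0653). Against +/Δ it was 1.20 with no sex term (adjusted p = 0.0502). Without Δ/Δ replicate 5 the differences were 1.02 (adjusted p = 0.1001) and 1.03 (adjusted p = 0.0768). In enhΔ/Δ the gene was uneven, at 1.86, 5.25, 1.32, 0.644, and 7.05 CPM, and its difference from +/+ of 0.62 ± 0.39 was not called (adjusted p = 0.579). *Des* overlaps the antisense gene *Gm15179* in mm9, and since strand was not stated for the counting, their reads cannot be told apart.

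*Tagln* (chr9:45737711-45744141, minus strand), *Cnn1* (chr9:21903725-21914074, plus strand), and *Myl9* (chr2:156601156-156607394, plus strand) encode transgelin, calponin, and the regulatory light chain of smooth muscle myosin. None of them was called in any of the 8 comparisons. *Tagln* ranged from 11.7 to 16.7 CPM in +/+ (median 14.4) and was 5.29, 14.4, 9.75, 22.01, and 8.27 CPM in Δ/Δ, so that the Δ/Δ libraries lay on both sides of +/+. Its difference was -0.34 ± 0.28, with a 95% interval of -0.91 to 0.23 that leaves out the size of rise seen for *Acta2*. The 3′ end of *Tagln* overlaps that of *Pcsk7* on the other strand. *Cnn1* was 0.378, 0.176, 0.220, 1.03, and 1.57 CPM in Δ/Δ against 0 to 1.99 CPM in +/+ (median 0.399). *Myl9* was 3.78, 7.83, 6.56, 4.73, and 4.61 CPM in Δ/Δ against 2.65 to 7.58 CPM in +/+ (median 5.48). The Δ/Δ and +/+ libraries overlapped for both, with 1 Δ/Δ library above all +/+ for *Myl9* and 0 for *Cnn1*. The interval for *Myl9* (-0.70 to 0.95) is wide enough to hold the rise of *Acta2*. In enhΔ/enhΔ *Myl9* was 0.550, 3.68, 0.740, 3.86, and 5.71 CPM, with 2 low libraries, and its difference of -0.83 ± 0.39 did not survive adjustment (unadjusted p = 0.0417, adjusted p = 0.683, limma).

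*Pdgfrb* (chr18:61204804-61244715, plus strand) encodes PDGFRβ, the receptor of mural cell progenitors for PDGF-B. It separated the genotypes most cleanly of the 8 genes. The Δ/Δ libraries had 28.0, 29.7, 38.3, 31.1, and 38.0 CPM. In +/+ the range was 12.4 to 25.3 CPM (median 19.6), in +/Δ 10.8 to 23.3 CPM (median 16.2), and in +/enhΔ 10.8 to 18.4 CPM. Every Δ/Δ library was therefore above every library of these genotypes. The difference was 0.83 ± 0.23 from +/+ (adjusted p = 0.0132, limma) and 0.96 ± 0.22 from +/Δ (adjusted p = 0.00286). *Pdgfrb* was the only 1 of the 8 members whose Δ/Δ values all lay above +/+, against 2.54% of all genes, and the only 1 above +/Δ, against 2.28%. The enhΔ/Δ values of 15.9, 26.5, 20.7, 28.1, and 32.2 CPM spanned the gap between +/+ and Δ/Δ. Their difference from +/+ was 0.39 ± 0.22 (adjusted p = 0.521) and from +/Δ 0.52 ± 0.22 (unadjusted p = 0.0236, adjusted p = 0.291). In enhΔ/enhΔ the level was 14.3, 16.8, 12.7, 24.95, and 22.9 CPM, within the +/+ range.

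*Pdgfra* (chr5:75548316-75594229, plus strand) encodes PDGFRα, a receptor of mesoderm and fibroblasts whose ligands include PDGF-A and PDGF-C. It was abundant and did not follow *Pdgfrb*. In Δ/Δ it was 84.3, 82.4, 104, 89.4, and 84.6 CPM, inside the +/+ range of 57.3 to 122 CPM (median 84.8). The difference was -0.01 ± 0.15, and its 95% interval of -0.32 to 0.29 leaves out the fitted rise of *Pdgfrb*. The highest levels were in enhΔ/Δ, at 122, 117, 91.9, 126, and 109.8 CPM. All 5 exceeded the +/+ median and 1 exceeded every +/+ library, yet the difference of 0.37 ± 0.15 was not called (unadjusted p = 0.0181, adjusted p = 0.284, limma). The same holds for Δ/Δ against enhΔ/Δ, at -0.38 ± 0.15 (adjusted p = 0.171).

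*Pdgfb* (chr15:79826330-79845238, minus strand) encodes the PDGF-B chain, which endothelium and platelets are known to make. It was low and did not differ detectably in any comparison. The +/+ libraries had 1.37 to 3.59 CPM (median 2.63), and the Δ/Δ libraries had 3.02, 4.27, 0.881, 2.06, and 2.00 CPM, on both sides of that median. The difference was -0.09 ± 0.38, with a 95% interval of -0.86 to 0.69. The enhΔ/Δ libraries had 3.90, 1.95, 0.732, 3.35, and 6.40 CPM, wider than +/+ in both directions.

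**Figure D2:**
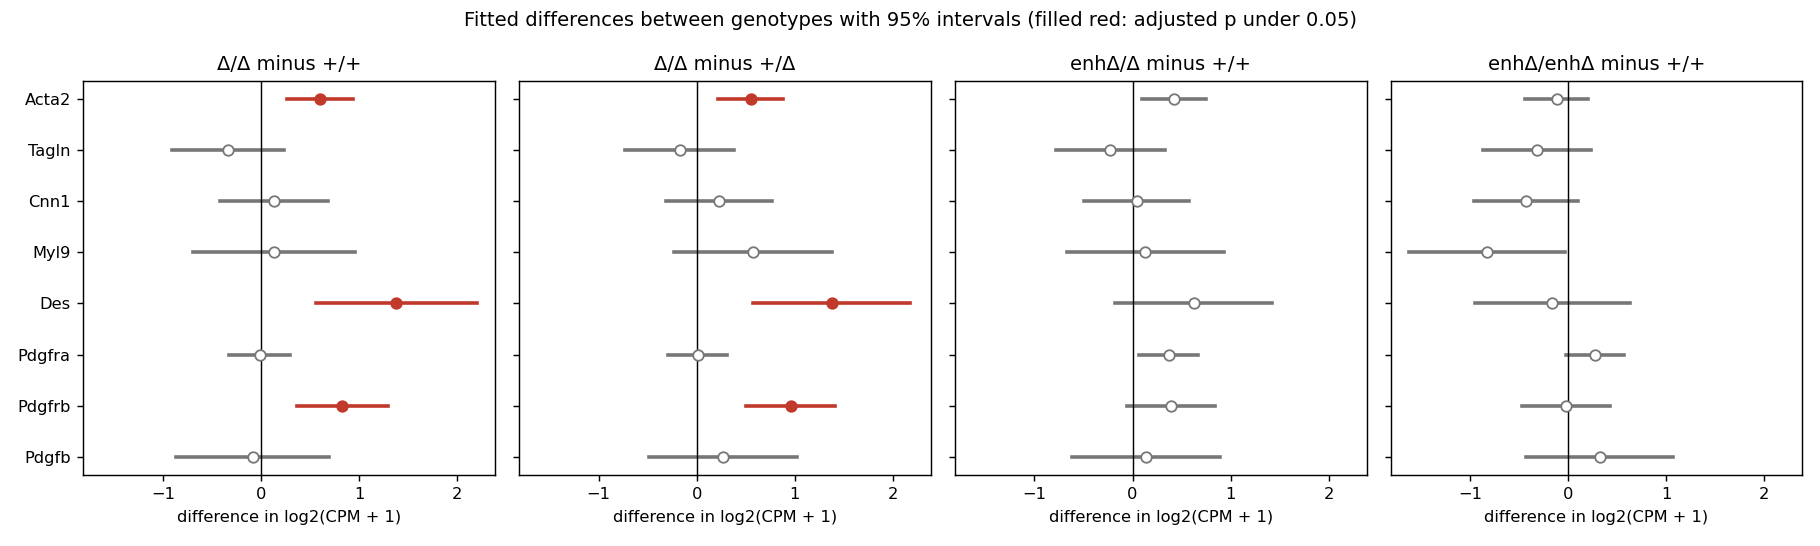
Fitted difference in log2(CPM + 1) (horizontal axis) for the 8 genes (vertical axis) in 4 comparisons, with 95% intervals, filled red where the adjusted p was under 0.05. *Acta2*, *Des*, and *Pdgfrb* are filled in Δ/Δ against +/+ and against +/Δ, and none is filled in enhΔ/Δ or enhΔ/enhΔ against +/+.

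Over the 6 genotypes together, an F test in the same limma fit associated 3 of 8 members with genotype, against 12.1% of all genes. These were *Pdgfrb* (adjusted p = 0.00795), *Acta2* (adjusted p = 0.0103), and *Des* (adjusted p = 0.0320). By mean level, *Pdgfrb* was ordered Δ/Δ (33.0 ± 4.84 CPM, SD, n = 5), enhΔ/Δ (24.7 ± 6.40, n = 5), +/+ (18.7 ± 5.00, n = 6), enhΔ/enhΔ (18.3 ± 5.35, n = 5), +/Δ (16.9 ± 4.66, n = 6), and +/enhΔ (14.9 ± 3.46, n = 4). *Acta2* also had Δ/Δ (184 ± 39.7 CPM) and enhΔ/Δ (158 ± 25.6) on top, followed by +/Δ (121 ± 18.3), +/+ (115 ± 14.8), +/enhΔ (115 ± 17.5), and enhΔ/enhΔ (109 ± 31.4). In neither gene did neighbours in the order differ by a called test where they were compared directly. Δ/Δ against enhΔ/Δ gave 0.18 ± 0.17 for *Acta2* (adjusted p = 0.660), 0.44 ± 0.23 for *Pdgfrb* (adjusted p = 0.345), and 0.76 ± 0.41 for *Des* (adjusted p = 0.358). For none of the 3 genes was a difference between the mutants shown.

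The other genotypes gave no calls among the 8 members. In enhΔ/Δ against +/+, 0 members were called, where 1.33% of all genes were called in either direction and 0.336% higher. In enhΔ/Δ against +/Δ, 0 were called, with 1.24% of all genes, and in Δ/Δ against enhΔ/Δ, 0 were called, with 4.9%. The milder genotypes were close to wild type over the whole transcriptome: 0 members and 0.0216% of all genes were called in enhΔ/enhΔ against +/+, 0 members and 0.0271% in +/Δ, and 0 members and 0% in +/enhΔ. At an unadjusted p under 0.05 (limma), members numbered 2 in enhΔ/Δ against +/+ (*Acta2* and *Pdgfra*; 11.7% of all genes), 3 in enhΔ/Δ against +/Δ (12.6%), 1 in Δ/Δ against enhΔ/Δ (17%), and 1 in enhΔ/enhΔ against +/+ (7.14%). They numbered 0 in +/Δ (5.79%) and 0 in +/enhΔ (4.44%). limma-voom on the recovered reads also called 0 members in each of these 6 comparisons.

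Other contractile genes were also called in part. Of 14 measured genes in a list of other contractile smooth muscle genes, 3 were higher and 0 lower in Δ/Δ than in +/+ (list median 0.17, all genes -0.01), where 5.6% of all genes were called higher and 7.69% lower. *Tpm2*, a tropomyosin, rose by 1.02 ± 0.29 (adjusted p = 0.0168, limma) and *Cald1*, which encodes the actin-binding caldesmon, by 0.53 ± 0.15 (adjusted p = 0.0175). The third was *Lmod1*, a nucleator of actin filaments, at 0.95 ± 0.33 (adjusted p = 0.0494). It was near the floor, with a mean log2(CPM + 1) of 0.502 over all libraries. *Smtn* (smoothelin) and *Tpm1* differed by -0.12 and 0.25 and were not called. Against +/Δ, 2 of 14, *Tpm2* and *Cald1*, were called higher again, beside 5.86% of all genes, and *Lmod1* was not called (adjusted p = 0.161, limma). In enhΔ/Δ against +/+ 0 of 14 were called (list median 0.23), beside 1.33% of all genes.

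Among 12 genes of SRF, its cofactors, and immediate targets, 0 were higher and 1 was lower in Δ/Δ (list median -0.20), close to the 7.69% of all genes called lower. That was *Filip1l*, at -1.42 ± 0.37 (adjusted p = 0.00883, limma). *Myocd*, the cofactor that drives smooth muscle and heart genes, was 1.51 higher, with an adjusted p of 0.0551, and *Mkl2* (*Mrtfb*), another cofactor, was 0.51 higher at 0.0596. *Fhl1*, a LIM protein of muscle, differed by -0.39 (adjusted p = 0.181). None of the 4 other PDGF genes was called against +/+ (list median 0.63). *Pdgfc* differed by 1.22 (adjusted p = 0.0546), *Pdgfd* by 0.77, the receptor-like *Pdgfrl* by 0.48, and *Pdgfa* by -0.20. Against +/Δ, *Pdgfrl* was called (0.80, adjusted p = 0.0389), as was *Mkl2* (0.56, adjusted p = 0.0312). *Pdgfrl* was near the floor, with a mean log2(CPM + 1) of 0.399 over all libraries. In TGF-β signalling, which drives smooth muscle differentiation, 3 of 11 genes rose and 1 fell in Δ/Δ against +/+ (list median 0.28), beside 5.6% of all genes higher and 7.69% lower. In enhΔ/Δ 2 of 11 rose (list median 0.05), beside 0.336% of all genes. *Ltbp1*, a latent TGF-β binding protein, rose by 1.15 ± 0.29 in Δ/Δ (adjusted p = 0.00617) and 1.399 ± 0.28 in enhΔ/Δ (adjusted p = 0.00373). *Tgfbr3*, the co-receptor betaglycan, rose by 0.75 ± 0.12 and 0.58 ± 0.12 (adjusted p = 3.55e-05 and 0.00463), and *Smad3* by 0.82 ± 0.25 in Δ/Δ (adjusted p = 0.0245). *Tgfb1*, a ligand that endothelium and blood cells make, fell by 1.59 in Δ/Δ (adjusted p = 0.000938), and *Tgfbr1* differed by 0.28. Against +/Δ, 1 of 11 was called higher in Δ/Δ, *Tgfbr3*, and 1 lower, *Tgfb1*, beside 5.86% and 7.59% of all genes. *Ltbp1* (adjusted p = 0.123) and *Smad3* (adjusted p = 0.0609) were not called there. In enhΔ/Δ against +/Δ 0 of 11 were called, beside 1.24% of all genes.

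Pericyte markers did not move as a block. Of 13 measured markers of pericytes and mural cells, 3 rose and 1 fell in Δ/Δ against +/+ (list median 0.23), beside 5.6% of all genes higher and 7.69% lower. In enhΔ/Δ 0 were called (list median 0.26), beside 1.33% of all genes. *Vtn* rose by 1.77 ± 0.22 (adjusted p = 4.94e-07, limma), *Cspg4*, the NG2 proteoglycan, by 1.04 ± 0.27 (adjusted p = 0.00898), and *Angpt1*, the mural ligand of the endothelial receptor TIE2, by 0.87 ± 0.27 (adjusted p = 0.0259). *Vtn* and *Cspg4* were near the floor, with mean log2(CPM + 1) values of 0.511 and 0.465 over all libraries. *Mcam*, which endothelium also carries, fell by 2.46 (adjusted p = 2.09e-05). Against +/Δ, which shares the *Ftl2-ps* state of Δ/Δ, *Vtn* was the 1 marker called higher and *Mcam* the 1 called lower, beside 5.86% and 7.59% of all genes. *Cspg4* (adjusted p = 0.157) and *Angpt1* (adjusted p = 0.194) were not called there. Which cells of the whole yolk sac gave the *Vtn* reads was not tested. *Rgs5*, often used to mark pericytes, differed by -0.06. *Kcnj8*, another defining pericyte marker, had no read in any +/+ or Δ/Δ library, and *Higd1b* had none in Δ/Δ. The summed markers were 60.2 to 90.1 CPM in +/+ and 78.7 to 105.7 CPM in Δ/Δ.

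Markers of other cell types also differed between genotypes, and their part in the rises of *Acta2*, *Des*, and *Pdgfrb* was not tested. Heart muscle genes were the first. In Δ/Δ against +/+, 7 of 10 rose and 1 fell (list median 1.33), beside 5.6% of all genes higher and 7.69% lower, with *Tnni1* up by 1.404 (adjusted p = 0.00143, limma), *Myh6* by 1.45 (adjusted p = 0.00903), *Actc1* by 2.23 (adjusted p = 0.0317), and *Ryr2* by 1.10 (adjusted p = 0.0363). Their summed level was 19.3 to 93.3 CPM in +/+ and 55.5, 74.3, 85.0, 92.7, and 182 CPM in Δ/Δ. Against +/Δ 2 of the 10, *Tnni1* and *Myh6*, were called higher (list median 0.82), beside 5.86% of all genes. *Actc1* (adjusted p = 0.239) and *Ryr2* (adjusted p = 0.106) were not called there. *Myh6* was near the floor, with a mean log2(CPM + 1) of 0.622 over all libraries. The sums of +/Δ ran from 17.1 to 136 CPM, and the highest, in replicate 6, exceeded 4 of the 5 Δ/Δ sums. In Δ/Δ against enhΔ/Δ 0 of 10 were called, beside 4.9% of all genes in either direction. The library with the highest sum, Δ/Δ replicate 5, was also the one with the highest *Des* and the lowest *Acta2* of its genotype. *Myl2*, a defining gene of ventricular muscle, had no read in +/+. In enhΔ/Δ the sum was 28.9 to 80.3 CPM and 0 of 10 genes were called against +/+ (list median 0.31), beside 1.33% of all genes.

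Fibroblast matrix genes rose in both mutants. All 6 were higher in Δ/Δ and 5 of 6 in enhΔ/Δ against +/+ (list medians 1.62 and 1.597). Of all genes, 5.6% and 0.336% were called higher in these comparisons. *Postn* was up by 2.00 and 1.79, *Col3a1* by 1.55 and 2.01, *Col1a1* by 1.73 and 1.70, and *Lum* by 1.69 and 1.03 (adjusted p between 1.47e-05 and 0.0284, limma). The sum was 399.7 to 705 CPM in +/+, 982 to 1872 CPM in enhΔ/Δ, and 2608, 2777, 2755, 1844, and 817 CPM in Δ/Δ, where replicate 5 was again apart. Endothelial genes went the other way: 8 of 10 fell in Δ/Δ (list median -2.54), beside 7.69% of all genes lower. The log2 differences from +/+ were -5.12 for *Cdh5*, -3.09 for *Pecam1*, -2.59 for *Cldn5*, and -2.10 for *Kdr*. In enhΔ/Δ 1, *Kdr*, rose, beside 0.336% of all genes higher. The endothelial sum was 104 to 168 CPM in Δ/Δ, 288 to 425 CPM in +/+, and 529 to 591 CPM in enhΔ/Δ.

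**Figure D3:**
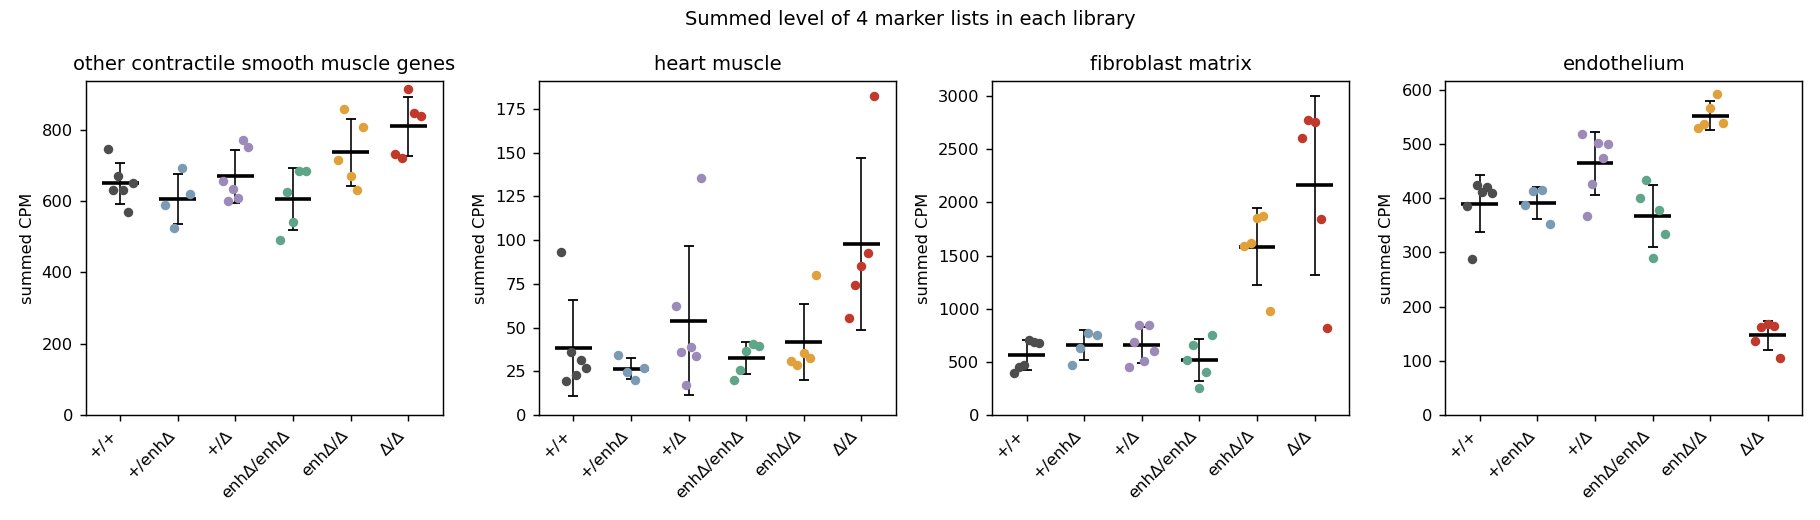
Summed CPM (linear axis from 0) of 4 gene lists in every library, by genotype, with 1 point per yolk sac, a line at the mean, and bars of 1 SD. By mean, heart muscle and fibroblast matrix are highest in Δ/Δ, with replicate 5 at 182 and 817 CPM as its outermost points, and endothelium is lowest there.

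Counts in the remaining lists were smaller. In Δ/Δ against +/+, 0 of 3 skeletal muscle genes, 1 of 7 genes of extraembryonic mesoderm and mesothelium (*Hand1*, up by 0.88, adjusted p = 0.000385, limma), 1 of 2 paraxial mesoderm genes (*Pax3*), and 1 of 6 visceral endoderm genes (*Afp*) rose, beside 5.6% of all genes higher. Counts of 1 in lists this short do not set them apart from that share. Megakaryocytes and platelets are another known source of PDGF-B, and not the only one besides endothelium. Of their 5 genes, 1 was lower in Δ/Δ than in +/+ (*Itga2b*, -2.42), beside 7.69% of all genes. Against +/Δ 2 were lower, *Itga2b* (-2.71) and *Pf4* (-0.99, adjusted p = 0.0115, limma), beside 7.59% of all genes. The list summed to at most 0.617 CPM in Δ/Δ against 4.71 to 10.8 CPM in +/+, and *Treml1* had no read in Δ/Δ. None of 6 decidual and trophoblast genes was called against +/+. Against +/Δ 1 was higher in Δ/Δ, *Gcm1* (1.60, adjusted p = 0.00216, limma), beside 5.86% of all genes.

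*Pdgfb* was also set against the endothelium within each library, as its log2(CPM + 1) minus the mean of the 10 endothelial genes. In Δ/Δ the value was -0.17, 0.12, -1.22, -0.58, and -0.25, against -3.19 to -2.28 in +/+, with no overlap. The means were -0.42 ± 0.51 (SD, n = 5) in Δ/Δ, -2.60 ± 0.34 (n = 6) in +/+, and -2.92 ± 0.87 (n = 5) in enhΔ/Δ. These are given as a description. The endothelial mean was 4.39 in +/+ and 2.13 in Δ/Δ, and *Pdgfb* averaged only 1.79 in +/+, so the value would have been higher in Δ/Δ even with no *Pdgfb* read there. Exact permutation tests were planned and run on this measure, and nothing is read from them here.

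The balance of the receptors was taken as *Pdgfra* minus *Pdgfrb*. It was 1.56, 1.44, 1.42, 1.495, and 1.13 in Δ/Δ, and 2.86, 2.10, 2.10, 2.13, and 1.74 in enhΔ/Δ, so the mutants did not overlap. The difference between them was -0.78 (two-sided exact permutation test, p = 0.00794, the smallest possible; adjusted p = 0.0159 over the 6 planned comparisons of values within libraries, which include 3 of the *Pdgfb* measure, and 0.0238 over the 3 of this measure, an adjustment added after the values were seen). The +/+ libraries were spread from 1.38 to 3.21, and the difference of Δ/Δ from them, -0.75, did not pass after adjustment (exact permutation p = 0.0476, adjusted p = 0.0714). enhΔ/Δ against +/+ gave 0.03 (exact permutation p = 0.935). In Δ/Δ the SD of this measure was 0.16, compared with 0.67 in +/+.

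**Figure D4:**
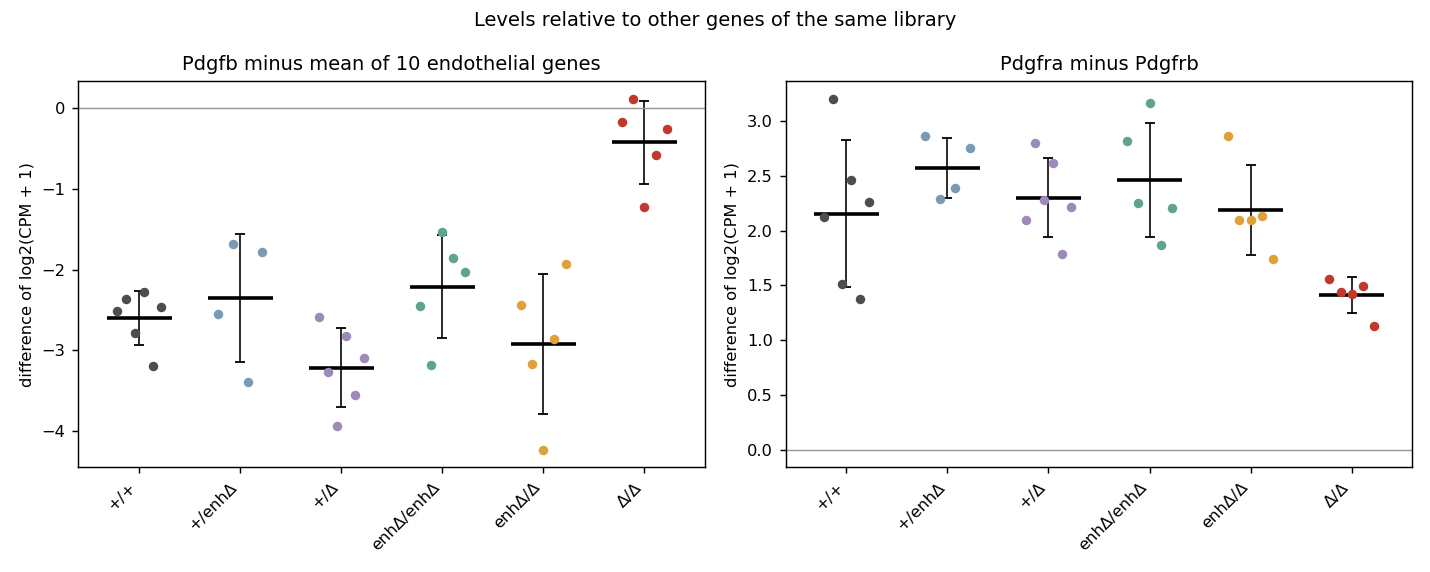
Difference of log2(CPM + 1) within a library (vertical axis) by genotype, for *Pdgfb* minus the mean of 10 endothelial genes and for *Pdgfra* minus *Pdgfrb*, with 1 point per yolk sac, a line at the mean, and bars of 1 SD. The Δ/Δ points lie above all others in the first panel and within 1.13 to 1.56 in the second.

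Whether the members vary together among yolk sacs of the same genotype was examined on residuals of the 31 libraries after genotype and labelled sex were fitted, over 28 pairs. After adjustment 3 pairs passed, and all 3 were positive. *Cnn1* and *Pdgfrb* had r = 0.56 (permutation p = 0.000880, adjusted p = 0.0236; rho = 0.53, permutation p = 0.00220, adjusted p = 0.0308), *Acta2* and *Pdgfrb* r = 0.54 (permutation p = 0.00178, adjusted p = 0.0236; rho = 0.54, permutation p = 0.00188, adjusted p = 0.0308), and *Cnn1* and *Des* r = 0.52 (permutation p = 0.00253, adjusted p = 0.0236; rho = 0.51, permutation p = 0.00364, adjusted p = 0.0340). Without the 2 libraries farthest from the median of the first gene, r was 0.53, 0.58, and 0.45. Within the 23 libraries of low *Ftl2-ps*, r was 0.56 for *Cnn1* and *Pdgfrb*, 0.56 for *Acta2* and *Pdgfrb*, and 0.70 for *Cnn1* and *Des*. Within the 8 of high *Ftl2-ps* it was 0.64, 0.55, and -0.31, so the relation of *Cnn1* and *Des* did not hold there. The r of *Pdgfra* and of *Pdgfb* with the other members lay between -0.24 and 0.16. *Pdgfra* and *Pdgfrb*, receptors of 1 family, had r = 0.00.

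**Figure D5:**
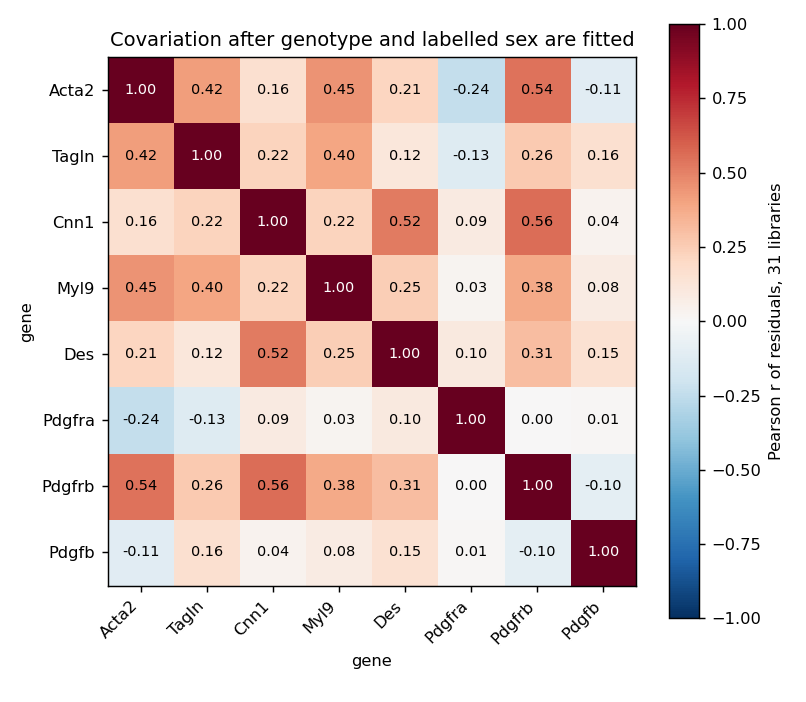
Pearson r between the residuals of each pair of genes over 31 libraries, after genotype and labelled sex were fitted (red positive, blue negative; both axes list the genes). The contractile genes and *Pdgfrb* form a block of positive values, and *Pdgfra* and *Pdgfb* stand near 0 with most others.

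Each member was also set beside the summed lists over the 31 libraries, as a description. A sum of CPM mostly follows the most abundant genes of a list. These were *Tgfbr1* and *Tgfbr3* in TGF-β signalling, with mean log2(CPM + 1) of 7.80 and 7.68. Among the other contractile genes they were *Tpm1* and *Cald1*, at 8.07 and 7.96. The libraries share genotypes, depth, and batches. Over all libraries *Acta2* was closest to fibroblast matrix (r = 0.80, and 0.48 in residuals), *Pdgfrb* to TGF-β signalling (0.78 and 0.53), and *Des* to the other contractile genes (0.75 and 0.57). *Cnn1* was closest to heart muscle (0.66, and 0.72 in residuals), and *Des* also stood at 0.64 with heart muscle (0.36 in residuals). *Acta2* had 0.40 with heart muscle and 0.08 in residuals. Its order changed in residuals, where endothelium came first (0.59, against -0.27 over all libraries) and the other contractile genes next (0.52). *Pdgfrb* was closest in residuals to extraembryonic mesoderm and mesothelium (0.57). *Tagln* lay between -0.29 and 0.25 with the 14 lists over all libraries, and in residuals it reached 0.43 with the other contractile genes and with extraembryonic mesoderm, and 0.39 with endothelium.

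Those most like each member across the 31 libraries, among the 10532 genes whose mean log2 was 2 or more, are again a description. For *Acta2* they were *Nedd4* (r = 0.84), *Cdkn1c* (0.81), and *Ncam1* (0.81), and for *Pdgfrb* *H2afy2* (0.81), *Tmem260* (0.78), and *Tmem108* (0.76). For *Des* they were *Cnpy2* (0.76), *Prickle2* (0.74), and *Fbh1* (0.74), and for *Myl9* *Myl6* (0.76), *Rfc1* (0.75), and *Ahnak* (0.75). *Cnn1* was most like *Nebl* (0.67) and *Actc1* (0.65), both muscle genes, and *Dcaf8* (0.60). *Tagln* was most like *Stk11* (0.71), *Ndufb10* (0.69), and *Fdxacb1* (0.68), and *Pdgfb* like *Tbc1d1* (0.65), *Unc119b* (0.61), and *Wdr70* (0.58). *Pdgfra* had the weakest likeness of the 8, with *Zfp629* (0.55), *Pqbp1* (0.54), and *Vamp2* (0.54).

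The calls in Δ/Δ against +/+ rested on particular libraries. Without +/+ replicate 2 none of the 3 was called (adjusted p = 0.0606 for *Acta2*, 0.0766 for *Des*, and 0.0720 for *Pdgfrb*, limma), and without Δ/Δ replicate 3 only *Des* was (0.0618 for *Acta2* and 0.0507 for *Pdgfrb*). By label, +/+ replicate 2 was the only male of +/+ (5 female, 1 male), while Δ/Δ had 2 female and 3 male. Leaving it out therefore also takes the only labelled male from +/+. With the *Ftl2-ps* state of each library as a term, the differences from +/+ were 0.65 for *Acta2*, 0.94 for *Des*, and 0.78 for *Pdgfrb*, and none was called (adjusted p = 0.129, 0.457, and 0.221, limma), with only 1 +/+ library in the state of Δ/Δ. All libraries of Δ/Δ and +/Δ share that state. In that comparison *Acta2* lost its call without +/Δ replicate 2 or Δ/Δ replicate 2, 3, or 4 (adjusted p = 0.0503 to 0.0852), and without the 3 shallowest libraries only *Pdgfrb* was called (0.99, adjusted p = 0.0220). Without the 4 libraries labelled male that had no Y-linked reads, *Acta2* and *Pdgfrb* were still called against +/+ (adjusted p = 0.0368 and 0.0278) and *Des* was not (1.43, adjusted p = 0.0584), while against +/Δ only *Pdgfrb* remained (1.05, adjusted p = 0.0277). Across 13 alternative settings the adjusted p against +/+ ranged from 0.00450 to 0.129 for *Acta2*, 0.0134 to 0.457 for *Des*, and 0.00570 to 0.221 for *Pdgfrb*. For *Pdgfrb* against +/Δ it ranged from 0.000954 to 0.0277, and the call was kept at 0.05 in all 13 and in all 31 fits without 1 library.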

How the data were processed

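RNA of 31 single E8.5 yolk sacs had been amplified from small inputs with the Trio RNA-seq kit, sequenced, aligned to mm9 with STAR 2.5.2a, and counted per Ensembl gene with featureCounts. Strand was not stated. The authors deposited log2(CPM + 1) values of 18477 genes, with library sizes adjusted by edgeR's normalization factors. The deposited table also holds the authors' comparison statistics (log2 fold changes, likelihood ratios, p-values), which were not used. All low values were whole multiples of 1 read (100% within 0.01 reads), so reads could be recovered.

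The deposited log2 values were fitted with limma 3.58.1 (R 4.3.3), with genotype and labelled sex over all 31 libraries (24 residual degrees of freedom), with Benjamini-Hochberg adjustment across the 18477 genes and a threshold of 0.05. The authors' batch term could not be included, since the labels give no batches. Fold changes are on the log2(CPM + 1) scale, which understates changes of low genes. Values within a library were compared by exact permutation of samples, and residual correlations with 100000 permutations (Python 3.11.15, numpy 2.4.6, scipy 1.17.1, pandas 2.3.3). The latter did not account for the degrees of freedom used by the fit. P-values measure the spread between single yolk sacs. The fits were tested on simulated data.

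The members and gene lists were chosen with earlier results of these data known. Named were all 8 members, from each list the 4 genes ranked first by the test for genotype (for the lists described by counts, only those called), and the 3 genes most like each member. *Lmod1*, *Smad3*, *Rgs5*, *Kcnj8*, *Higd1b*, *Myl2*, and *Treml1* were named after their values were seen. Alternatives were the sex term, an *Ftl2-ps* term, a filter (mean log2 of at least 1), quantile normalization, a pseudocount of 0.25, no normalization factors, limma-voom on recovered reads, only the groups compared, a threshold of 0.01, the replicate number as a block, and leaving out each library. Sex by Y-linked reads, and leaving out the 4 libraries labelled male without such reads or the 3 shallowest, were chosen after seeing the data. Promoters came from RefSeq.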

Additional observations from a re-analysis of the deposited data

Results flagged for a closer look

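Among 60 groups of 4 to 6 libraries (or single values within libraries) examined for a library far from the rest by Dixon's 95% critical value, which is lower for larger groups, 1 stood apart, where chance gives about 3 (about 1 in 20). *Myl9* in +/Δ replicate 3 was the lowest of its genotype, at 0.55 on the log2(CPM + 1) scale (0.461 CPM), against 2.05 to 2.88 in the other 5 libraries. The gap took up a share of 0.645 of the range. That library is 1 of the 3 shallowest.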

How the results depend on the processing

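No called difference changed sign. Uncalled ones did over the alternatives in Δ/Δ against +/+, with *Cnn1* from -0.46 to 0.59, *Myl9* from -0.30 to 0.36, *Pdgfra* from -0.16 to 0.10, and *Pdgfb* from -0.44 to 0.00. Against +/+, Δ/Δ called 3 members, but 0 with *Ftl2-ps* state as a term and 0 at a threshold of 0.01. *Des* was also lost with no sex term (limma, adjusted p = 0.0769), with sex by Y-linked reads (0.0653), and without the 4 libraries labelled male that lacked such reads (0.0584). Leaving out 1 library gave 0 to 3, with 0 without +/+ replicate 2 and 1 without Δ/Δ replicate 3. Against +/Δ, 1 of the 3 was left without the 4 libraries labelled male that lacked Y-linked reads, 1 without the 3 shallowest libraries, and 1 at 0.01. There *Des* was also lost with no sex term (limma, adjusted p = 0.0502) and *Acta2* in only the groups compared (0.0659), and leaving out 1 library gave 2 to 3. The test over all genotypes left 1 at 0.01, and leaving out 1 library gave 2 to 3. *Pdgfra* relative to *Pdgfrb* in Δ/Δ against +/+ ranged from -0.90 to -0.54 with 1 library left out and passed without +/+ replicate 5 (-0.90, exact permutation, adjusted p = 0.0238). By Spearman's rho *Acta2* and *Myl9* were also under 0.05 (rho = 0.49, permutation, adjusted p = 0.0459), by the same permutations, whose p-values are too small. The cause of these changes was not tested. Over all genes, Δ/Δ against +/+ called 2455, which became 886 with the *Ftl2-ps* term, 1394 in only the groups compared, and 1252 at 0.01. Against +/Δ 2484 became 1359 without the 4 libraries and 1597 without the 3 shallowest. enhΔ/Δ against +/+ called 245, and 81 with the *Ftl2-ps* term.

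With the replicate number as a replicate block, Δ/Δ kept 3 calls against +/+ and 3 against +/Δ, with 2142 genes called against +/+. Same-numbered libraries share only a number: their deviations had a median r of -0.0321 over 71 pairs, and 1 of 31 libraries correlated best with its own number. The planned edgeR quasi-likelihood test was not run. limma-voom on the recovered reads took its place and called 3 members in both comparisons. *Cnn1*, *Des*, and *Pdgfb* were limited by depth, with 175 reads of *Cnn1* in all.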
